A study of Mus musculus with 14 samples.

Results

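The transcripts of the mouse mitochondrial genome were followed in granulosa cells (GCs) of antral follicles. The set held every gene whose symbol starts with mt-, which was 37 of the 55414 genes in the count table. Of these, 13 encode proteins, 2 encode ribosomal RNAs and 22 encode transfer RNAs. The study set 2 models of genetic obesity against their lean littermates, all of them females aged 12 weeks on chow, with 14 libraries of about 50 cells each. The db/db mice (B6.BKS(D)-Leprdb/J, 4 libraries) lack the long isoform of the leptin receptor, and the ob/ob mice (B6.Cg-Lepob/J, 3 libraries) lack leptin. The lean littermates were CT db (4 libraries) and CT ob (3 libraries). The sample labels give these controls as wild type, whereas the column names of the table read as heterozygous, and this was not settled. Both mutations are present in every cell of the body from birth, so GC-specific and systemic effects of the loss cannot be told apart. Libraries are named here by their group and the number in the column name. Nothing in the labels says that the libraries of a group came from separate mice, so p-values measure the spread between these libraries, which may be technical in part.

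Mitochondrial DNA is a small circle that is read from both strands into long precursors, which are then cut into messengers, ribosomal RNAs and transfer RNAs. The messengers encode core subunits of respiratory chain complexes I, III, IV and of the ATP synthase, and the remaining subunits come from nuclear genes. Most mitochondrial messengers carry short poly(A) tails and so can be caught by oligo-dT beads, as used for these libraries. In the ovary, GCs surround and feed the oocyte and make steroid hormones, a synthesis whose first step takes place inside mitochondria.

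Which of these genes can be measured with 75-base reads depends on copies of mitochondrial DNA in the nuclear chromosomes. In the reference genome GRCm39, the longest copy lay at chr1:24650616-24655269 on the minus strand. It matched positions 6390 to 11042 of the mitochondrial chromosome, numbered from 1, over 4654 aligned bases with 99.936% identity. Between them stood 2 substitutions, A6393T in mt-Co1 and T9461C in mt-Nd3 (mitochondrial base, position, copy base), and 1 extra base of the copy in mt-Tr. The first 75 bases of mt-Co2, a subunit of complex IV, are shown because a read of this length from either place would be the same. Both are in lower case throughout, since no base differs.

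mt-Co2, chrM:7013-7087 (+): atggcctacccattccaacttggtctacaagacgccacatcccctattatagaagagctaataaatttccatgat

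chr1 copy of mt-Co2, chr1:24654572-24654646 (-): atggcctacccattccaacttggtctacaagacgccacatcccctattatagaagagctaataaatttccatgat

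The stretches around both substitutions are shown because they hold the only substituted bases that tell the mitochondrial gene from the chr1 copy. The capital letter marks the substituted base. The mt-Co1 stretch begins before the copy does, so its copy is shorter.

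mt-Nd3, chrM:9431-9491 (+): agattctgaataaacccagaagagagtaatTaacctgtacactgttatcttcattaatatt

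chr1 copy of mt-Nd3, chr1:24652168-24652228 (-): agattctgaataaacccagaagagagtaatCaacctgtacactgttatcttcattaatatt

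mt-Co1, chrM:6363-6423 (+): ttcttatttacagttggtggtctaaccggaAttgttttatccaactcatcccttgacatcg

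chr1 copy of mt-Co1, chr1:24655236-24655269 (-): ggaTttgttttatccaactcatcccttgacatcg

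Of the 75-base windows of the mitochondrial chromosome, 5218 occurred letter for letter in a nuclear chromosome. All windows of mt-Co2, mt-Atp8, mt-Atp6, mt-Co3 and mt-Nd4l did so (100%), as did 98.9% of those of mt-Nd3, where 3 of 274 windows were unique. The share was 61.5% for mt-Nd4, 39.8% for mt-Co1, 5.71% for mt-Nd2, 2.85% for mt-Rnr2 and 1.66% for mt-Nd5. It was 0 for mt-Rnr1, mt-Nd1, mt-Nd6 and mt-Cytb.

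The 5 genes without a unique window were at or near 0 in every library. Over all 14 libraries, mt-Co2 had 9 counts in total, mt-Atp8 had 4 and mt-Co3, the third subunit of complex IV, had 18. The ATP synthase subunit mt-Atp6 had 43 counts and the complex I subunit mt-Nd4l had 3. These low counts say nothing of the abundance of the transcripts, because the handling of reads that match several places is not stated in the sources used here. The 7 annotated pseudogenes in the chr1 copy were also near 0, with at most 15 counts per library for any of them. The pseudogene Gm28661, which matches mt-Co2, had 0 to 4 counts per library, and Atp6-ps had 0 to 14. Counts of mt-Nd3 were between 28 and 174 per library.

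**Figure D1:**
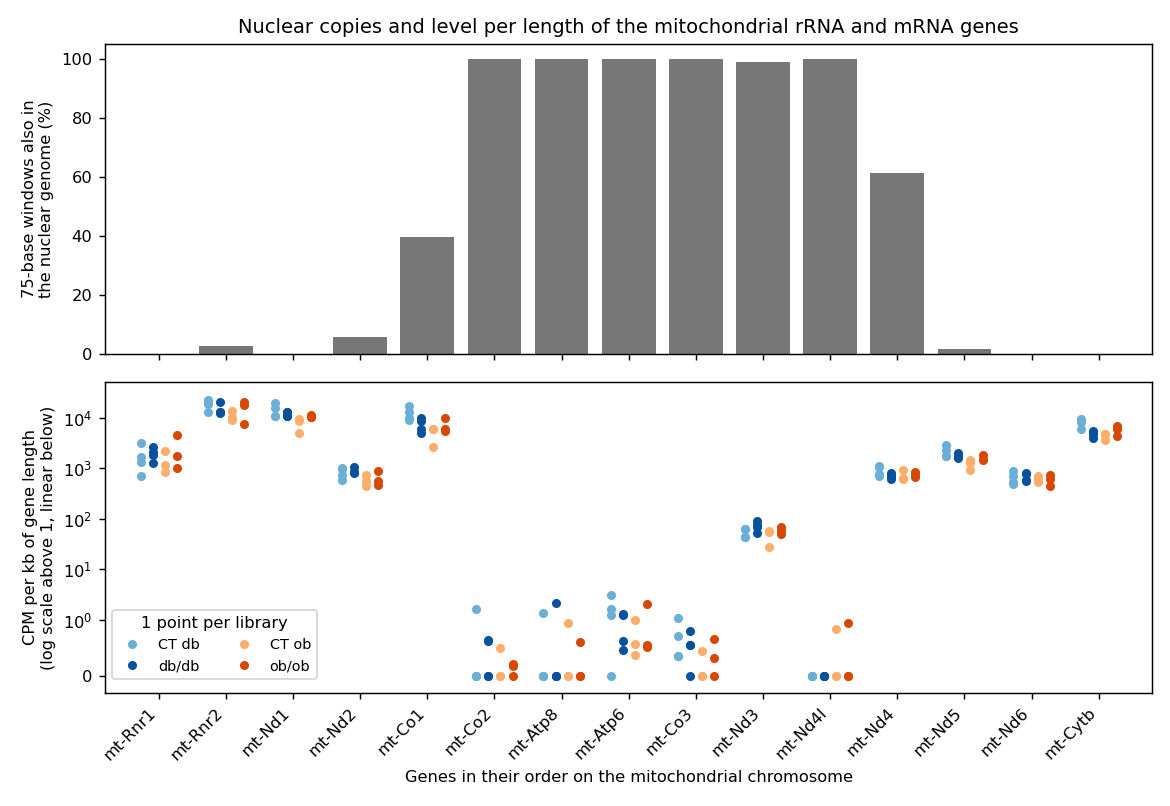
The upper panel gives, for each mitochondrial rRNA and mRNA gene, the percent of its 75-base windows that also occur in the nuclear genome (bars). The lower panel gives CPM per kb of gene length, 1 point per library coloured by group, on an axis that is logarithmic above 1. The 5 genes at 100% lie near 0 in all 14 libraries, and mt-Nd3 at 98.9% lies between them and the other genes.

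The other genes differed widely in level per length. In CPM (counts scaled to a common library total, with TMM factors) per kb of gene, the median over libraries was 13352 for mt-Rnr2, the 16S rRNA, and 10823 for mt-Nd1, a core subunit of complex I. It was 7385 for mt-Co1, the catalytic subunit of complex IV, and 5332 for mt-Cytb, the mitochondrially encoded subunit of complex III. The 12S rRNA mt-Rnr1 stood at 1674 and the complex I subunit mt-Nd5 at 1671. The complex I subunits mt-Nd2, mt-Nd4 and mt-Nd6 were lower, at 755, 727 and 614 CPM per kb, and mt-Nd3 was at 57.0. Counted per 1000 unique windows in place of length, mt-Co1 was at 12893, above mt-Nd1 at 11731, and mt-Nd4 at 1997, above mt-Nd5 at 1771. The order of these pairs therefore depended on whether windows shared with nuclear copies were counted as measurable. On the same scale mt-Nd3 was at 6607, a value that rests on 3 windows.

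Transfer RNAs were hardly present. The 22 genes had 691 counts in all libraries together, 14 to 100 per library, and 8 of them were at 0 throughout. The genes for glutamine, cysteine and proline tRNA (mt-Tq, mt-Tc and mt-Tp) held 81.2% of these counts. All of these 3 genes lie on the minus strand, as do 8 of the 22 tRNA genes, which together held 84.4%. The longest of the tRNA genes has 75 bases, so a whole read can extend into the neighbouring transcript, and the protocol does not mark the strand. Counts on minus-strand tRNA genes, and on mt-Nd6, the only messenger of the minus strand, therefore cannot be told apart from antisense RNA.

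Of the 37 genes, 13 had enough counts to be tested in every comparison, namely both rRNAs, 8 messengers and mt-Tq, mt-Tc and mt-Tp. Library totals were 2204686 to 8367593 counts, and 3 counts, taken as the limit of detection, were 0.359 to 1.36 CPM. Totals were 3624237 to 4840714 in CT db and 2204686 to 3059777 in db/db. They were 3664219 to 4847166 in CT ob and 5306632 to 8367593 in ob/ob. Totals of mutants and controls thus did not overlap in either model, so genotype and depth cannot be told apart. Among the markers, granulosa genes summed to 5008 to 11984 CPM per library and all 8 of them were detected. Red cell genes summed to at most 0.682 CPM. Theca markers summed to 43.3 to 98.7 CPM in CT db and 71.8 to 334 CPM in db/db. They summed to 56.9 to 96.6 CPM in CT ob and 51.9 to 84.4 CPM in ob/ob. Immune markers summed to 3.65 to 7.96 CPM in CT db and 2.16 to 22.2 CPM in db/db. In CT ob and ob/ob these were 1.73 to 16.2 and 2.91 to 8.74 CPM. Both lists were highest in db/db library 24, and their part in the results was not tested. The 18S rRNA gene Rn18s-rs5 took 24.5% of the counts in CT ob library 68 and 12.8% in db/db library 24, and 1.096% to 9.12% in the others.

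The mitochondrial genes together made up between 3.25% and 9.70% of the counts of a library. The share was 5.73%, 9.70%, 6.93% and 8.59% in CT db libraries 37, 51, 69 and 75. In db/db libraries 24, 53, 68 and 81 it was 5.72%, 5.36%, 6.50% and 6.22%. The lowest CT db library, 37, lay within the range of db/db, and the other 3 lay above every db/db library. In CT ob libraries 60, 65 and 68 the share was 4.47%, 4.86% and 3.25%, and in ob/ob libraries 41, 50 and 106 it was 6.88%, 5.995% and 5.42%. All 3 ob/ob libraries lay above all 3 CT ob libraries. The 95% Wilson interval of a share reached at most 0.0324 percentage points to either side, and it covers counting error only, since the reads carried no molecular identifiers. A share of counts from bulk cells cannot tell fewer cells of a type from less RNA per cell.

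The share of all 37 genes averaged 5.95% ± 0.509 for db/db against 7.74% ± 1.76 for CT db (SD, n = 4 each), a difference that did not pass an exact two-sided permutation test (p = 0.114, adjusted p = 0.286 over 4 shares). The messengers alone averaged 3.42% ± 0.465 for db/db against 4.69% ± 1.19 for CT db (SD, n = 4 each; exact permutation p = 0.143, adjusted p = 0.286). For the rRNAs the means were 2.52% ± 0.693 and 3.04% ± 0.678 (SD, n = 4 each; exact permutation p = 0.4). Without CT db library 51, the difference in the share of all 37 genes was -1.14 percentage points in place of -1.79, and that in messengers was -0.760 in place of -1.27. No p below 0.0286 is possible with 4 libraries per group.

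In the ob model the direction of the means was opposite. The share of all 37 genes averaged 6.10% ± 0.738 for ob/ob against 4.19% ± 0.840 for CT ob (SD, n = 3 each). The groups did not overlap, yet the exact permutation p was 0.1, the smallest that 3 against 3 libraries can give (adjusted p = 0.2). The messengers averaged 3.38% ± 0.531 for ob/ob against 2.39% ± 0.909 for CT ob (SD, n = 3 each; exact permutation p = 0.1, adjusted p = 0.2), again without overlap. The rRNA shares, 2.71% ± 1.20 in ob/ob against 1.80% ± 0.163 in CT ob (SD, n = 3 each), did overlap, as ob/ob library 106 was at 1.42%, below all CT ob libraries (exact permutation p = 0.4, adjusted p = 0.533). The lowest CT ob messenger value, 1.35%, was that of library 68, in which Rn18s-rs5 took 24.5% of the counts. Without Rn18s-rs5 in the total, the adjusted p for the messengers was 0.4, and without library 68 their difference was 0.467 percentage points in place of 0.990.

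The controls of the models were also set against each other. Messengers made up 2.39% ± 0.909 of counts in CT ob against 4.69% ± 1.19 in CT db (SD, n = 3 and 4). The rRNAs made up 1.80% ± 0.163 in CT ob against 3.04% ± 0.678 in CT db (SD, n = 3 and 4). For both, the groups did not overlap, and the exact permutation p was 0.0571 (adjusted p = 0.0762). These totals include Rn18s-rs5, which took 24.5% of the counts in CT ob library 68. With Rn18s-rs5 left out of the totals, the rRNA share of that library lay above that of CT db library 37. The rRNA shares then overlapped, whereas the messenger shares still did not. Between ob/ob and db/db the messenger shares were 3.38% and 3.42% (exact permutation p = 0.914). The comparisons share groups, so that low values of CT ob enter both the ob comparison and that of the controls.

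**Figure D2:**
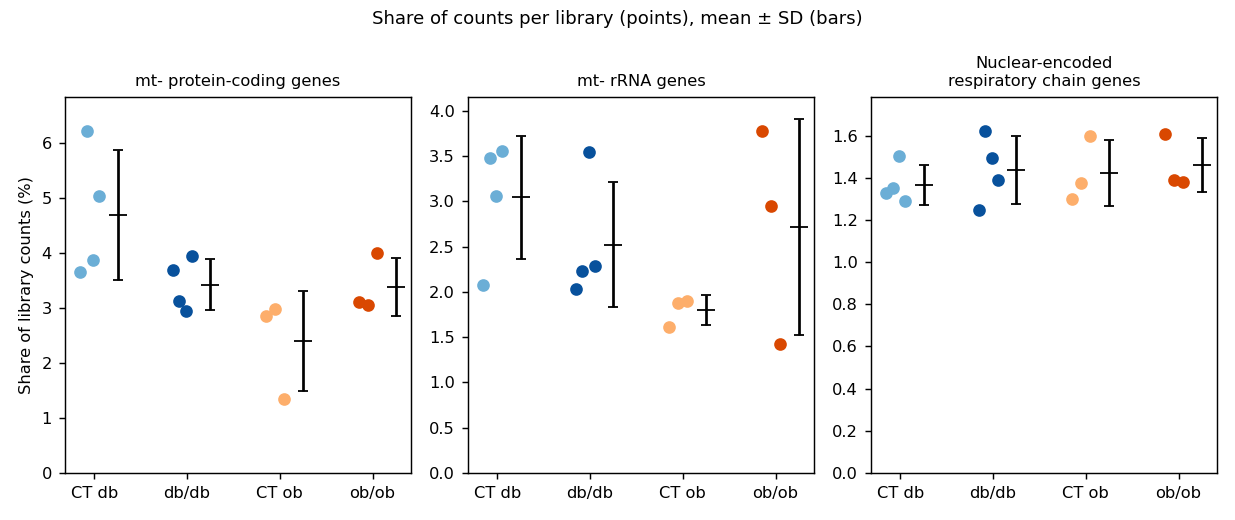
Share of library counts in percent on the mitochondrial protein-coding genes, the mitochondrial rRNA genes and the nuclear genes of the respiratory chain, for each of the 14 libraries (points) with the group mean ± SD (bars). The messenger share runs from 1.35% in CT ob to 6.22% in CT db, whereas the nuclear share stays between 1.25% and 1.62%. Both are shares of all counts, with Rn18s-rs5 included.

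The nuclear genes for respiratory chain subunits, the partners of the mitochondrial messengers in the same complexes, varied over a narrower range. Their summed share was 1.37% ± 0.0946 in CT db against 1.44% ± 0.160 in db/db (SD, n = 4 each). It was 1.42% ± 0.156 in CT ob against 1.46% ± 0.128 in ob/ob (SD, n = 3 each). Exact permutation p-values of the 4 comparisons were between 0.486 and 0.914. These totals include Rn18s-rs5, which took 24.5% of the counts in CT ob library 68. Over nuclear protein-coding and mitochondrial counts, ob/ob lay 0.156 percentage points below CT ob (-0.156), the opposite direction.

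Gene by gene, db/db was compared with CT db first. No mitochondrial gene passed an adjusted p of 0.05 in edgeR's quasi-likelihood test (0 of 13 tested), where 0.00884% of all genes tested did. At an unadjusted p under 0.05 there were 3, mt-Cytb, mt-Co1 and mt-Tq, all lower in db/db, beside 4.21% of all genes in this direction and 7.59% in either. With DESeq2, 1 gene passed, mt-Cytb, beside 0.389% of all genes. The median log2 fold change of the 13 genes was -0.29, and that of all genes tested was 0.01.

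The messenger of cytochrome b, mt-Cytb, was at 6825, 10568, 9198 and 10194 CPM in CT db libraries 37, 51, 69 and 75. It was at 6177, 4428, 5442 and 6022 CPM in db/db libraries 24, 53, 68 and 81. The groups did not overlap, as was the case for 2 of the 13 genes and for 4.14% of all genes tested. The log2 fold change was -0.74 (SE 0.189), with an adjusted p of 0.398 in edgeR and 0.0215 in DESeq2. The other gene without overlap was mt-Tq, with 12 to 39 counts per library in CT db and 1 to 6 in db/db (log2 fold change -2.11, SE 0.524, adjusted p = 0.394 in edgeR). Scaled for depth, mt-Tq was at 3.29 to 10.6 CPM in CT db and 0.430 to 2.56 CPM in db/db. Without a filter on low counts its adjusted p was 0.0138, and its values lie near the limit of detection.

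For mt-Co1 the CT db libraries were at 14839, 26564, 14088 and 20127 CPM and the db/db libraries at 14928, 9353, 7759 and 13468 CPM. The highest db/db library thus lay above the 2 lowest CT db libraries. The log2 fold change was -0.74 (SE 0.268), with an edgeR adjusted p of 0.567. The 16S rRNA mt-Rnr2 was at 20503, 32785, 29459 and 35336 CPM in CT db and at 20388, 19178, 31752 and 20061 CPM in db/db. In db/db, library 68 stood apart at a level found in CT db, and the log2 fold change was -0.38 (SE 0.234, edgeR adjusted p = 0.727).

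The complex I subunits lay on both sides of 0, and none passed the test. Values of mt-Nd1 were 10511, 18849, 10336 and 14989 CPM in CT db against 12494, 10380, 10081 and 12551 CPM in db/db (log2 fold change -0.27, SE 0.220). The corresponding change of mt-Nd5 was -0.29 (SE 0.191) and that of mt-Nd4 was -0.35 (SE 0.176). Above 0 were mt-Nd3 at 0.43 (SE 0.226), mt-Nd2 at 0.10 (SE 0.183) and mt-Nd6 at 0.05 (SE 0.201). The 12S rRNA mt-Rnr1 was at 0.17 (SE 0.375), mt-Tc at -0.92 (SE 0.974) and mt-Tp at 0.63 (SE 0.374). Adjusted p-values in edgeR were between 0.679 and 0.964 for these genes. The values of mt-Nd2, mt-Nd6 and mt-Rnr1 turned below 0 when single libraries were left out. Without CT db library 51 the change was -0.073 for mt-Nd1 and -0.12 for mt-Nd5, and without CT db library 75 it was -0.0087 for mt-Tc.

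**Figure D3:**
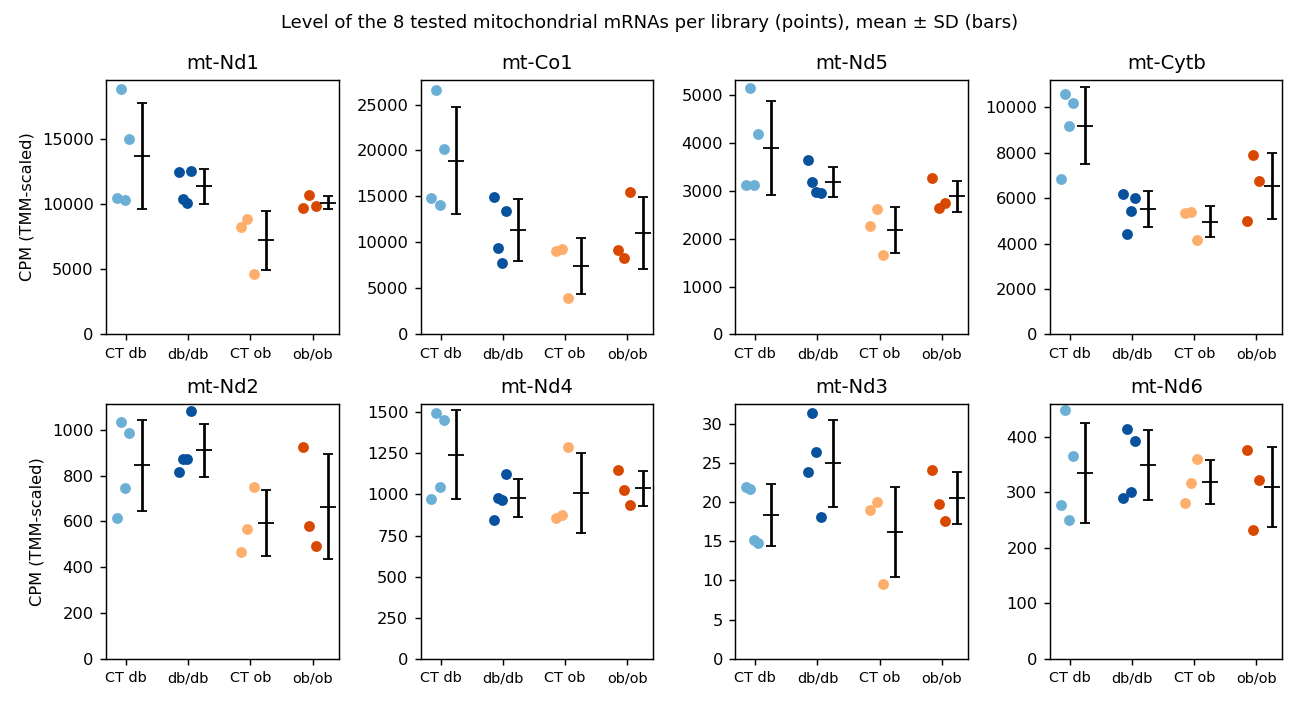
CPM, scaled by TMM, of the 8 tested mitochondrial messengers in each library (points) with the group mean ± SD (bars), 1 panel per gene with an axis from 0. For mt-Cytb the 4 CT db libraries, at 6825 CPM and above, lie above all db/db and CT ob libraries.

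In ob/ob against CT ob, 0 of 13 genes passed in edgeR, as for 0.0% of all genes tested. None had an unadjusted p under 0.05, beside 8.16% of all genes, and DESeq2 called 0 of them, beside 0.692%. Of the 13 estimates 11 were above 0, with a median of 0.40 where all genes had -0.04 and 54.0% of them were below 0. With single libraries left out, 1 to 6 of the 13 were below 0, and it was 6 without ob/ob library 41. The values of mt-Nd1 were 8215, 8840 and 4641 CPM in CT ob libraries 60, 65 and 68 and 9741, 10685 and 9889 CPM in ob/ob libraries 41, 50 and 106 (log2 fold change 0.48, SE 0.284, edgeR adjusted p = 0.682). Its groups did not overlap, nor did those of mt-Nd5, at 2273, 2616 and 1654 CPM in CT ob and 3259, 2647 and 2753 CPM in ob/ob (log2 fold change 0.40, SE 0.237, edgeR adjusted p = 0.682). These were 2 of 13 genes, and 15.8% of all genes tested had groups without overlap.

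The other main transcripts overlapped between ob/ob and CT ob. For mt-Cytb the CT ob values were 5344, 5392 and 4163 CPM and the ob/ob values 5005, 7887 and 6747 CPM (log2 fold change 0.40, SE 0.252). For mt-Co1 they were 9079.5, 9345 and 3977 CPM in CT ob and 9226, 8345 and 15484 CPM in ob/ob (log2 fold change 0.56, SE 0.390). Among the 3 ob/ob libraries, library 106 was the highest in mt-Co1 and the lowest in both rRNAs. The 16S rRNA mt-Rnr2 was at 14173, 16517 and 21743 CPM in CT ob and at 31864, 28683 and 12051 CPM in ob/ob (log2 fold change 0.46, SE 0.386). The estimate for mt-Rnr1, 0.79 (SE 0.554), rested on ob/ob library 41 at 4255 CPM and was -0.013 without it. Without CT ob library 68 the estimates were 0.25 for mt-Nd1, 0.26 for mt-Co1 and 0.24 for mt-Nd5. The minus-strand messenger mt-Nd6 was at -0.05 (SE 0.227), and at 0.064 when scaled by library size only.

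Between the controls, 4 of the 13 genes passed in edgeR with all 14 libraries in the fit, all lower in CT ob. Of all genes tested, 6.63% passed, and 4.39% passed in this direction. The log2 fold change was -1.34 (SE 0.349, adjusted p = 0.0371) for mt-Co1 and -0.92 (SE 0.250, adjusted p = 0.0433) for mt-Nd1. It was -0.89 (SE 0.209, adjusted p = 0.0277) for mt-Cytb and -0.83 (SE 0.210, adjusted p = 0.0333) for mt-Nd5, by the same edgeR test. Among the messengers tested, these 4 had the highest median CPM per kb of gene, and they belong to complexes IV, I and III. Counted per unique window in place of length, mt-Nd3 and mt-Nd4 lay above mt-Nd5. Messengers without a unique window could not be ranked. For all 4, and for no other member, the CT ob values lay below every CT db value, against 21.2% of all genes tested without overlap in either direction and 11.2% in this one. DESeq2 called 4 as well, beside 12.4% of all genes.

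The calls between the controls were lost in several settings. Scaling by library size only, a fit of the 2 control groups alone, and a fit without any one of CT db library 51, CT db library 75, CT ob library 60 or CT ob library 68 each left 0 genes called. In the fit of the 2 groups alone, adjusted p-values in edgeR were 0.0748 for mt-Cytb, 0.0800 for mt-Co1, 0.104 for mt-Nd5 and 0.120 for mt-Nd1, and 0.0253% of all genes passed. The remaining 9 estimates were also below 0, where 45.9% of all genes were. For mt-Rnr2 the log2 fold change was -0.76 (SE 0.312, edgeR adjusted p = 0.139), and for mt-Nd6 it was -0.07 (SE 0.222). Model, strain and collection cannot be told apart in this comparison. Oocyte markers, 11 of 11 detected, summed to 4.50 to 304 CPM in CT db and 91.1 to 1312 CPM in CT ob. In the mutants they summed to 10.2 to 80.9 CPM in db/db and 188 to 958 CPM in ob/ob. Endothelial markers, 5 of 5 detected in both groups, were low but did not overlap, with sums of 3.09 to 8.24 CPM in CT db and 8.87 to 31.4 CPM in CT ob. Endothelial sums were 3.12 to 10.2 CPM in db/db and 7.02 to 8.03 CPM in ob/ob. The part of either cell type in this or the other comparisons was not tested.

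**Figure D4:**
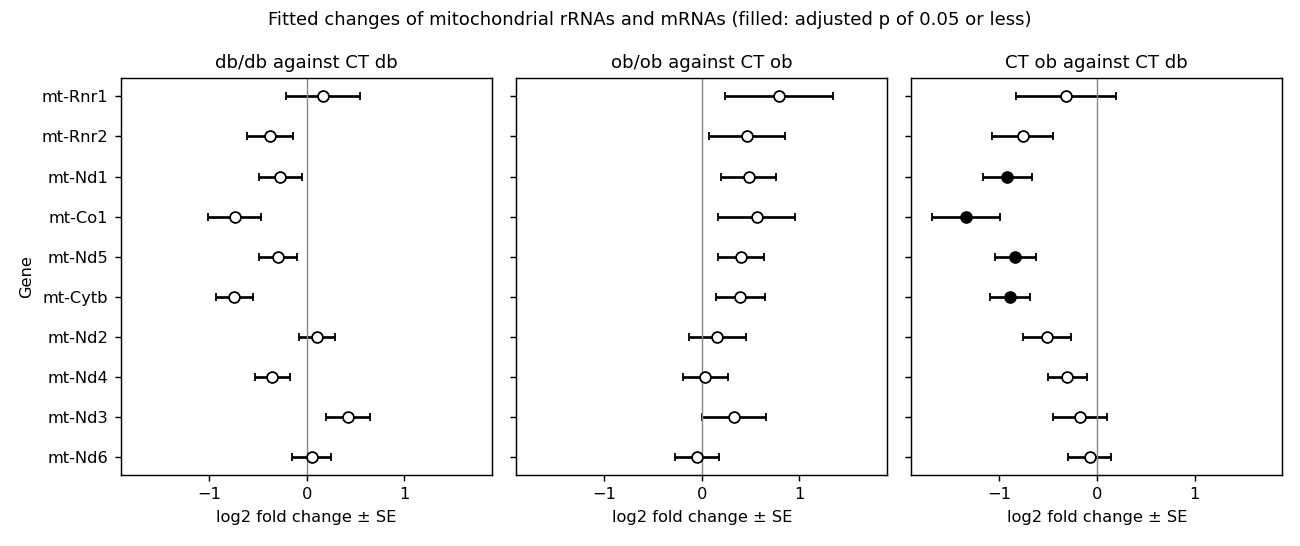
Log2 fold changes ± SE (edgeR) of the mitochondrial rRNAs and 8 messengers in db/db against CT db, ob/ob against CT ob and CT ob against CT db. Filled points, at mt-Nd1, mt-Co1, mt-Nd5 and mt-Cytb in the comparison of the controls, passed an adjusted p of 0.05.

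Between ob/ob and db/db, 0 of 13 genes passed in edgeR, beside 0.0159% of all genes. None had an unadjusted p under 0.05, beside 8.19% of all genes, and DESeq2 called 0, beside 0.572%. Whether the mutant effect differed between the models was tested as an interaction. Its estimate equals the difference of ob/ob from db/db minus that of CT ob from CT db. It is therefore not independent of the comparison of the controls. No gene passed in edgeR (0 of 13, beside 0.0% of all genes), but 4 had an unadjusted p under 0.05, all with a higher estimate in the ob model, beside 5.12% of all genes in this direction. The difference of the log2 fold changes was 1.14 (SE 0.291, edgeR adjusted p = 0.277) for mt-Cytb and 1.29 (SE 0.478, edgeR adjusted p = 0.538) for mt-Co1. It was 0.75 (SE 0.346) for mt-Nd1 and 0.69 (SE 0.292) for mt-Nd5. In ob/ob against db/db the log2 fold changes of mt-Cytb, mt-Co1, mt-Nd1 and mt-Nd5 were 0.25, -0.05, -0.17 and -0.14. The interaction estimates of these genes thus came mostly from the difference between the controls. DESeq2 called 1 gene, mt-Cytb (adjusted p = 0.0210), beside 0.572% of all genes.

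The make-up of the messenger counts does not depend on library totals or scaling. The parts are of a fixed whole, so a lower part of a messenger raises those of the others. That whole is the counted reads and not all mitochondrial mRNA. Messengers without a unique window were near 0 in it. Windows shared with nuclear copies were 98.9% for mt-Nd3, 61.5% for mt-Nd4 and 39.8% for mt-Co1. In CT db, mt-Co1 held 39.0% ± 2.18 (SD, n = 4) of the messenger counts, mt-Nd1 28.2% ± 1.16, mt-Cytb 19.5% ± 3.06 and mt-Nd5 8.10% ± 0.179. Of 10 measures compared, 2 did not overlap between db/db and CT db. The part of mt-Nd1 was 31.9%, 35.0%, 35.5% and 33.4% in db/db libraries 24, 53, 68 and 81, and at most 29.4% in CT db. It averaged 33.9% ± 1.65 for db/db against 28.2% ± 1.16 for CT db (SD, n = 4 each; exact permutation p = 0.0286, the smallest possible, adjusted p = 0.114). In CPM, mt-Nd1 was not higher in db/db (edgeR log2 fold change -0.27, SE 0.220). The part of mt-Nd2 was 2.74% ± 0.448 in db/db against 1.77% ± 0.158 in CT db (SD, n = 4 each; exact permutation p = 0.0286, adjusted p = 0.114).

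The part of mt-Co1 was lower on average in db/db, at 33.2% ± 4.77 (SD, n = 4; exact permutation p = 0.0571, adjusted p = 0.114), with 1 db/db library, 24, inside the CT db range. That of mt-Nd6 was 1.06% ± 0.268 in db/db against 0.696% ± 0.0402 in CT db (SD, n = 4 each; exact permutation p = 0.0571, adjusted p = 0.114). The ratio of 16S to 12S rRNA counts was 12.8 ± 3.02 in db/db against 21.9 ± 8.35 in CT db (SD, n = 4 each; exact permutation p = 0.114). It was 31.1 in CT db library 37 and 10.9 in CT db library 51, and between 9.76 and 16.9 in the db/db libraries, so that the groups overlapped.

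In CT ob against CT db, 4 of the 10 measures did not overlap. The part of mt-Co1 was 34.2%, 33.4% and 23.6% in CT ob libraries 60, 65 and 68, with a mean of 30.4% ± 5.91 (SD, n = 3), and 36.3% to 41.4% in CT db (exact permutation p = 0.0286, adjusted p = 0.0714). Higher parts in CT ob were those of mt-Nd4 (4.67% ± 2.59 against 2.61% ± 0.198), mt-Nd5 (9.25% ± 0.634 against 8.10% ± 0.179) and mt-Nd6 (1.44% ± 0.603 against 0.696% ± 0.0402), each with an exact permutation p of 0.0286 and an adjusted p of 0.0714 (SD, n = 3 and 4). In CPM none of them was higher in CT ob, with edgeR log2 fold changes of -0.30, -0.83 and -0.07. Library 68 was the farthest from CT db in each of mt-Co1, mt-Nd4, mt-Nd5 and mt-Nd6. Without it the difference was 0.575 percentage points in place of 2.07 for mt-Nd4, 0.397 in place of 0.744 for mt-Nd6 and -5.22 in place of -8.62 for mt-Co1. In ob/ob against CT ob, 0 of the 10 measures were without overlap and the adjusted p of the exact permutation test was 1.0 for all of them. In the 4 between-group comparisons of this make-up no measure had an adjusted p of 0.05 or less.

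**Figure D5:**
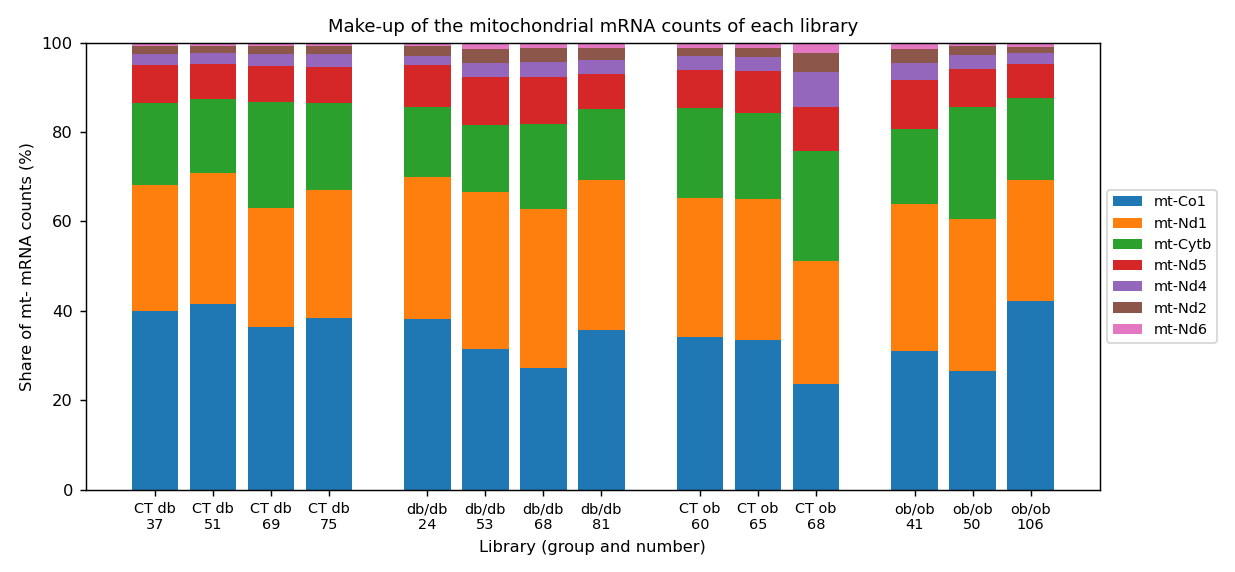
Percent of the mitochondrial messenger counts held by each of 7 messengers in each of the 14 libraries (stacked bars, 1 bar per library, named by group and number). The bar of CT ob library 68 has the smallest part of mt-Co1, 23.6%, and the largest part of mt-Nd4, 7.66%.

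Across the 14 libraries, the log2 CPM values of the abundant messengers moved together. Pearson's r was 0.95 for mt-Nd1 with mt-Nd5, 0.90 for mt-Nd1 with mt-Co1 and 0.79 for mt-Co1 with mt-Cytb. The rRNAs correlated with each other (r = 0.66), whereas r was -0.13 between mt-Rnr1 and mt-Co1 and -0.12 between mt-Nd6 and mt-Cytb. The libraries differ in group and depth, and these coefficients are descriptions only. The nuclear genes whose pattern was most like that of the summed messengers were Vbp1 (r = 0.963), Ttc14, Ppp6c, Cul4b and Cmpk1 (r = 0.951), out of 7528 genes compared over 14 libraries.

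The nuclear genes that maintain and express mitochondrial DNA were examined as a list. Of 51 tested machinery genes, 0 passed in edgeR in db/db against CT db, where 5 had an unadjusted p under 0.05, all lower, beside 4.21% of all genes in this direction. In ob/ob against CT ob 0 passed and 2 had such a p, both higher, beside 8.16% of all genes in either direction. The smallest p-values in the db model were those of Ptcd2, a protein that binds mitochondrial RNA (log2 fold change -0.65, SE 0.178), Mterf2 (-1.32, SE 0.459) and the mitochondrial RNase P subunit Prorp (-0.47, SE 0.194). In the ob model they were those of Mterf3 (0.71, SE 0.201), Fastkd1 (0.46, SE 0.187) and the mitochondrial ribosome-associated Ptcd3 (0.58, SE 0.299). Mterf3, which represses mitochondrial transcription, was lower in CT ob than in CT db (log2 fold change -0.98, SE 0.184, edgeR adjusted p = 0.0121), the 1 of 51 machinery genes that passed there, beside 6.63% of all genes. The median of the list was -0.08 in the db model, -0.03 in the ob model and -0.05 between the controls, beside 0.01, -0.04 and 0.06 for all genes.

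Proteins of the mitochondrial ribosome (77 genes tested) showed 0 calls in either model in edgeR. At an unadjusted p under 0.05 there were 2 higher and 4 lower in db/db, beside 7.59% of all genes, and 1 lower in ob/ob, beside 8.16%. The smallest p-values were those of Mrpl18, Mrps18c and Mrps36 in the db model, with log2 fold changes of -0.39, -0.52 and -0.69, and of Mrpl38, Mrpl37 and Mrps18c in the ob model, with -0.68, -0.47 and 0.46. Between the controls 2 of 77 passed, beside 6.63% of all genes. Mrps18c was lower in CT ob (-1.17, SE 0.240, edgeR adjusted p = 0.0164) and Mrpl38 was higher (0.83, SE 0.182, edgeR adjusted p = 0.0218). The median of the list was -0.02 in db/db against CT db, -0.21 in ob/ob against CT ob and 0.21 in CT ob against CT db. The medians of all genes were 0.01, -0.04 and 0.06.

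The nuclear subunits of the respiratory chain are the direct partners of the proteins that the mitochondrial messengers encode. In edgeR 0 of 72 passed in the db model and 0 of 73 in the ob model, with 6 and 1 at an unadjusted p under 0.05, beside 7.59% and 8.16% of all genes. The complex III subunit Uqcrb (-0.74, SE 0.162), the complex I subunit Ndufb6 (-0.64, SE 0.145) and the ATP synthase inhibitor Atp5if1 (0.49, SE 0.153) had the smallest p-values in db/db against CT db. In ob/ob against CT ob these were Ndufb6 (0.66, SE 0.176), the complex IV subunit Cox7b (0.42, SE 0.202) and the complex I subunit Ndufa13 (-0.86, SE 0.416). Between the controls 4 of 73 passed, beside 6.63% of all genes, with Ndufb6 (-0.97, adjusted p = 0.00659), Uqcrb (-0.76, adjusted p = 0.0259) and the ATP synthase subunit Atp5pb (-0.59, adjusted p = 0.0331) lower in CT ob and Ndufa13 (1.07, adjusted p = 0.0456) higher, by edgeR. Without CT ob library 68 the value of Ndufa13 was 0.36 (edgeR adjusted p = 0.247). None of the 7 nuclear genes named as passing between the controls did so in the fit of the 2 control groups alone (edgeR adjusted p-values of 0.0543 to 0.125). The median of the respiratory chain list between the controls was 0.29, beside 0.06 for all genes. Of its genes 23.3% were below 0, beside 45.9% of all genes. All 13 mitochondrial genes tested were below 0 in the same comparison (11 to 13 when single libraries were left out). The list median was not followed with single libraries left out. Without CT ob library 68 the median of all genes was 0.00056.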

How the data were processed

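RNA-seq of GCs gave 14 libraries. According to the paper's methods, the authors obtained single reads of 75 bp, which passed through cutadapt 1.18, STAR 2.7.10a on GRCm39 and featureCounts 2.0.1. The submitters' processing notes name Trim Galore 0.6.2, HISAT2 2.1.0 and GRCm38 instead, and which was used for the table was not settled. Reads that match both the mitochondrial and a nuclear chromosome may be lost or shared under either, since their handling and the strand setting are not given in the sources used here. The deposited values were whole-number counts per gene without normalization. The authors' own comparisons used DESeq2.

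Symbols, positions and sequences came from GRCm39 and its GENCODE annotation, which covered 54749 of the 55414 identifiers. Nuclear copies were found with BLAST 2.17.0 (identity of at least 90%), and windows of 75 bases were matched exactly on both strands. Columns were assigned to groups by name, and no pair of libraries was identical (correlations of 0.942 to 0.979).

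Counts were analysed with edgeR 4.0.16 in R 4.3.3 (TMM, filterByExpr with a minimum count of 10 and total of 15, quasi-likelihood test, Benjamini-Hochberg adjustment over all genes tested). The db and ob models were fitted apart, and the comparisons between models and the interaction came from 1 fit of all 14 libraries. SE is the log2 fold change divided by the square root of F. Shares and make-up were compared with exact two-sided permutation tests, adjusted over 4 shares and 10 make-up measures per comparison. The edgeR fits of the db and ob models were tested on simulated data, whereas DESeq2 and the fit of all 14 libraries were not. The members and gene lists were chosen with earlier results of these data known. All 37 members were accounted for, and from each nuclear list the 3 genes with the smallest p per model and those with an adjusted p of 0.05 or less were named. The 5 genes most like the messengers had a mean of at least 20 CPM. Alternatives were DESeq2 1.42.0, robust estimation, other scalings, other filters, 1 fit of all libraries, other denominators, counts on nuclear copies added, the log2 scale and leaving out each library. A fit of only the groups compared, a fit without Rn18s-rs5 and the same alternatives for nuclear list genes called between the controls were chosen after seeing the data. The depth was 2204686 to 8367593 counts per library.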

Additional observations from a re-analysis of the deposited data

Results flagged for a closer look

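In groups of 4 libraries, the gap of the highest or lowest library to its nearest neighbour was divided by the range of the group and set against Dixon's 95% critical value for 4 samples. Of 56 group values screened, 3 exceeded it, and chance marks about 1 in 20. The first was mt-Rnr2 in db/db library 68, at 31752 CPM where the other 3 libraries were at 19178 to 20388 CPM (gap over range 0.904). The second was the rRNA share of the same library, 3.55% of counts against 2.03% to 2.28% (gap over range 0.836), which rests largely on the same gene. The third was the part of mt-Nd5 in the messenger counts of CT db library 37, 8.37% against 7.99% to 8.02% (gap over range 0.921). This last gap is small in absolute size, since the other 3 libraries were nearly equal. Groups of 3 libraries, CT ob and ob/ob, were not screened in this way.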

How the results depend on the processing

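No paired analysis was possible because the columns carry no replicate numbers that the groups share. Between the controls, the number of mitochondrial genes called, 4, was 0 with scaling by library size only and 0 in the fit of the 2 groups only, and 0 to 4 when single libraries were left out. In db/db against CT db, where edgeR called 0, DESeq2 called 1 (mt-Cytb) and edgeR without a filter called 1 (mt-Tq). For the interaction, where edgeR called 0, DESeq2 called 1 (mt-Cytb) and edgeR without a filter called 2 (mt-Co1 and mt-Cytb). Over all genes, 834 passed between the controls (282 higher and 552 lower in CT ob), and 352 and 434 with upper quartile scaling, 597 and 966 with DESeq2, 752 and 975 without a filter, 96 and 169 by library size only, and 0 and 3 in the fit of the 2 groups only.

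In ob/ob against CT ob, the log2 fold change of mt-Nd6 was 0.064 by library size only and 0.034 without a filter. The difference in tRNA share, 5.65e-05 percentage points, was -6.77e-05 without Rn18s-rs5 and -8.04e-05 over nuclear protein-coding and mitochondrial counts. That in the nuclear respiratory chain share was -0.138 and -0.156 in these settings. For ob/ob against db/db the tRNA difference was 0.0179 on the log2 scale. None of these passed a test in any setting. The causes were not tested.

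With single libraries left out, log2 fold changes in db/db against CT db ran from -0.095 to 0.65 for mt-Rnr1, from -0.022 to 0.22 for mt-Nd2 and from -0.079 to 0.23 for mt-Nd6. In ob/ob against CT ob they ran from -0.013 to 1.26 for mt-Rnr1 and from -0.21 to 0.13 for mt-Nd6, and in CT ob against CT db from -0.20 to 0.10 for mt-Nd6. Differences in share, in percentage points, between ob/ob and db/db ran from -0.346 to 0.131 for messengers, -0.340 to 0.838 for rRNAs, -1.78e-04 to 9.65e-05 for tRNAs, -0.241 to 0.492 for all 37 genes and -0.0521 to 0.0836 for the nuclear respiratory chain. The last was -0.0385 to 0.123 in ob/ob against CT ob and -0.0316 to 0.119 in CT ob against CT db. The tRNA share in ob/ob against CT ob ran from -6.41e-05 to 1.38e-04. The ratio of rRNA to messenger counts ran from -0.0419 to 0.176 in db/db against CT db and from -0.0593 to 0.365 in CT ob against CT db. The direction of the log2 fold changes of mt-Cytb, mt-Co1, mt-Nd1 and mt-Nd5 was the same in every setting for both models, the controls and the interaction. Of the 7 nuclear list genes called between the controls, Ndufb6 was called in 14 of 14 fits with a library left out, Mterf3 in 13, Mrps18c and Mrpl38 in 11, Uqcrb in 10, Atp5pb in 9 and Ndufa13 in 3. Depth limits the tRNA genes, with 14 to 100 counts per library.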
